A study of Mus musculus with 6 samples.

Results

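The interferon regulatory factors (IRFs) and the signal transducers and activators of transcription (STATs) were examined in cells collected from the mouse peritoneal cavity, a common source of macrophages. The genes followed were Irf1, Irf2, Irf3, Irf5, Irf7, Irf8, Stat2, Stat3 and Stat6, taken as every probe set on the Affymetrix array that carries one of these symbols alone. Of the 9 genes, 7 were found, on 10 of 12488 probe sets, and the table used here had no probe set under the symbols Irf2 and Stat2, so neither gene was analysed here. Irf3, Irf7 and Stat3 had 2 probe sets each.

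There were 6 arrays with 1 array in each group. Cells of mice lacking NF-IL6 (KO), cells of the knock-in line labelled KI(LAP) (KI) and wild-type cells (WT) were each measured after lipopolysaccharide (LPS) with interferon-γ and untreated. NF-IL6 is another name for C/EBPβ, a leucine-zipper transcription factor whose gene is Cebpb, and LAP denotes an activating form of this protein. The strain is given as C57BL/6 for all 6 arrays. The stimulation lasted 12 h by the labels of the KO and KI cells, whereas the WT label gives no time, and no label gives age, sex, a number of pooled animals or how the exudate was raised. Values are linear signal intensities, for which the number of arrays limits the precision.

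IRFs bind DNA through an N-terminal domain with conserved tryptophans and act on interferon-stimulated response elements (ISREs), while STATs are latent in the cytoplasm, are phosphorylated by Janus kinases at cytokine receptors and bind gamma-activated sites (GAS elements). In macrophages interferon-γ acts through its receptor and the Janus kinases on genes such as Irf1, and LPS leads through Tlr4 to Irf3 activation, interferon-β, and a second wave that runs through the type I interferon receptor to Irf7. Irf3 and Irf5 are activated mainly by phosphorylation of protein already made, so their mRNA need not track their activity. Stat3 carries the signals of interleukins 6 and 10, and Stat6 those of interleukins 4 and 13.

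The promoter windows of the 3 members with the largest rises are shown because these genes moved together with stimulation. They were read from RefSeq (GRCm38.p6), run 5′ to 3′ on the gene's strand and hold 250 bases before and 50 after a transcript start. Capitals mark matches to GAS (TTCNNNGAA).
Irf1 (chr11:53769764-53770063, + strand): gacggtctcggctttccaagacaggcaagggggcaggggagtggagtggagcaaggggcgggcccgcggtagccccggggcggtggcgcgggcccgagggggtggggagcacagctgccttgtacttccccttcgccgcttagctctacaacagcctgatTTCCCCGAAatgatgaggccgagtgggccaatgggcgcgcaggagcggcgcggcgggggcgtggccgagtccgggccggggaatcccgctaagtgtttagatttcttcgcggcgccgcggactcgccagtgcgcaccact
Irf8 (chr8:120736108-120736407, + strand): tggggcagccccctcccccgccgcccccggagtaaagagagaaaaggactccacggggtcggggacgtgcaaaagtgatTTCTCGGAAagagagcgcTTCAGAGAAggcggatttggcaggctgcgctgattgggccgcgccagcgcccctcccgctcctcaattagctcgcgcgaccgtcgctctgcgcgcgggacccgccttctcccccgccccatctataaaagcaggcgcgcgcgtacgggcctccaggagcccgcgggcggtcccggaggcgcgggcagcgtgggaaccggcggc
Irf7 (chr7:141266375-141266674, - strand): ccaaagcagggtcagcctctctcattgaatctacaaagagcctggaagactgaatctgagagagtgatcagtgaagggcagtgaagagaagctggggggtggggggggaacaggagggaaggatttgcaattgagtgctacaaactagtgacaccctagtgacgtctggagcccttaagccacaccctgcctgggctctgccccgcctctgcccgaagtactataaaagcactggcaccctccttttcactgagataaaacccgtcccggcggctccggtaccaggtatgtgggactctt
The Irf1 window held 1 GAS match, TTCCCCGAA, whose first base lay 90 bases before the start. The Irf8 window held 2, TTCTCGGAA and TTCAGAGAA, with first bases 171 and 153 bases before the start. No match to GAS, to an ISRE core (a pair of GAAA repeats with any 2 bases between them) or to a C/EBP motif (TTGCNNAA) was found in the Irf7 window, each motif being searched on both strands. Irf1 and Irf8 each had a second annotated start, whose window held none of the 3 motifs. Of the 11 windows of all 9 listed genes, 3 held a GAS match (Irf1, Irf2 and Irf8), 2 an ISRE match (Irf2 and Stat2) and 1 a C/EBP match (Irf2). Among all 32851 windows of the same length, 8.30% held the GAS letters, 3.44% the ISRE letters and 10.8% the C/EBP letters. These matches describe letters in a window and were not tied to binding.

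The arrays were first checked against their labels. Cebpb had a signal of 59.0, 5892 and 9326 on the stimulated KO, KI and WT arrays, against 12.7, 2285 and 5491 on the untreated KO, KI and WT arrays. All 9 macrophage markers were above the signal floor of 98.0 on every array, with a summed signal of 40912 to 53144 on the stimulated and 61715 to 63956 on the untreated arrays. Markers of B cells, which also use Irf8, were above the floor for 5 of 5 measured genes on every array and summed to 1585, 1008 and 1766 on the stimulated KO, KI and WT arrays, against 3539, 1310 and 3780 on the untreated ones. Of 5 measured dendritic cell markers 3 or 4 were above the floor on each array, and their sum was 4481, 3971 and 2742 on the stimulated KO, KI and WT arrays, against 2955, 7947 and 1904 on the untreated ones. Itgax, which macrophages express too, gave 7305 of the untreated KI sum, and Zbtb46 was under the floor on every array. Without Itgax, a split made after the values were seen, the other 4 markers summed to 2955, 829 and 1113 on the stimulated KO, KI and WT arrays, against 1157, 642 and 1088 on the untreated ones. All 4 measured NK cell markers and 4 of 5 T cell markers were under the floor on every array. The untreated WT array had the largest share of probe sets above the floor, 65.8%, against 55.7% to 61.2% on the other arrays. In RNA of mixed cells, fewer cells of a type and less RNA per cell cannot be told apart.

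After LPS with interferon-γ, Irf1, Irf7, Irf8, Irf5 and Stat3 rose, and Irf3 and Stat6 did not pass the test. The 5 rises are set against 470 of 9344 probe sets that rose (5.03%) and 562 that fell (6.01%) in the same limma fit, in which genotype was a block and p-values were adjusted over all 9344. With each array centred on its median, the whole-table split became 640 higher and 367 lower, and the median change of all named genes 0.04, against -0.13 as reported here. The error of this fit comes from the unlike responses of the 3 genotypes, and the spread between animals or cultures is not in it. Without the arrays of any single genotype, 0 of the 7 members passed, as did at most 13 probe sets of the whole table.

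**Figure D1:**
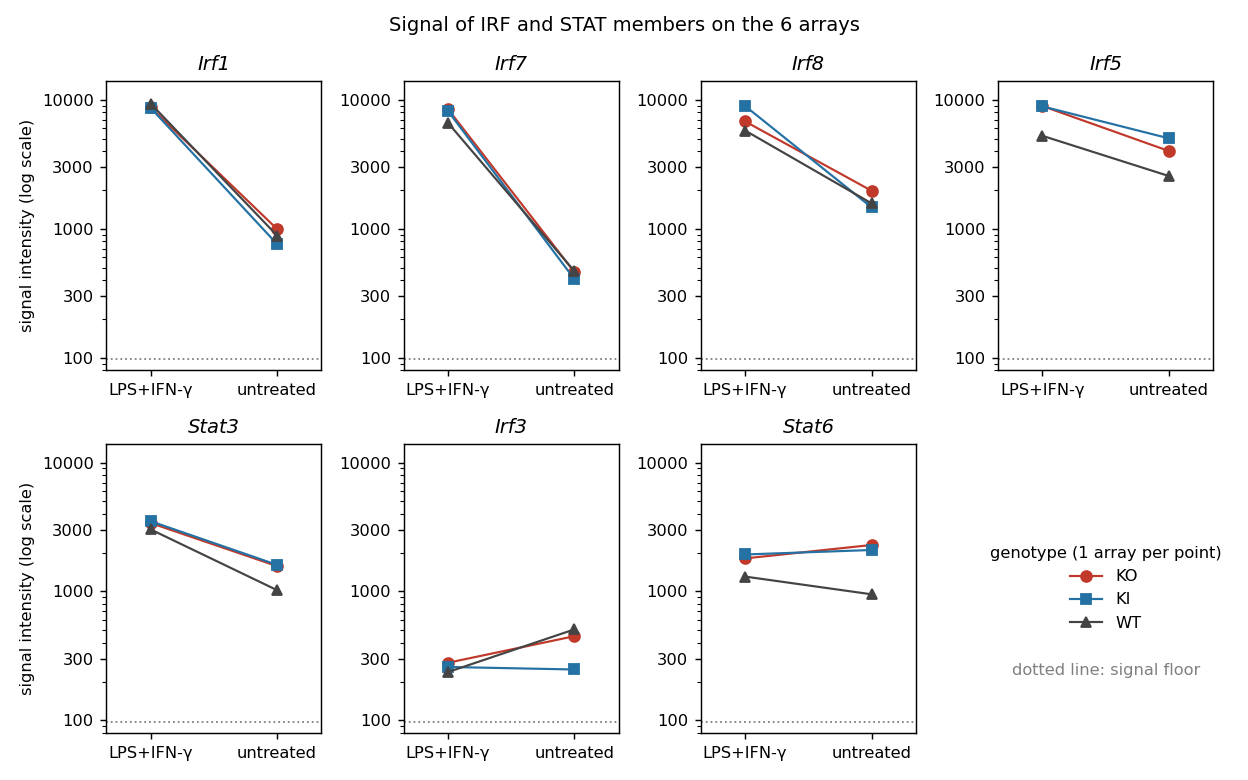
Signal intensity (log axis) of the 7 measured members after LPS with interferon-γ and untreated, 1 array per point, with lines joining the arrays of a genotype and a dotted line at the floor of 98.0. Irf1, Irf7, Irf8, Irf5 and Stat3 are higher on every stimulated array than on any untreated one, whereas for Irf3 and Stat6 the states overlap. The share of all probe sets that separate in this way was not counted, so the separation is a description of the points only.

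Irf7, which amplifies type I interferon expression, had the largest rise. Its signal was 8504, 8219 and 6649 in stimulated KO, KI and WT cells, against 461, 407 and 469 in untreated KO, KI and WT cells. The stimulated arrays stood far above the untreated ones in each genotype, by 18.4-fold in KO, 20.2-fold in KI and 14.2-fold in WT cells. The mean log2 change was 4.12 (SE 0.15, limma adjusted p = 0.000469), the 35th highest of 6767 named genes. A second Irf7 probe set, of a kind that Affymetrix marks as able to match several similar sequences, was dimmer, with 1862, 1678 and 1452 in stimulated KO, KI and WT cells, against 264, 215 and 404 in untreated ones. Its mean log2 change was 2.54 (SE 0.27, limma adjusted p = 0.00888).

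Irf1, the interferon-γ-inducible activator of genes for antigen presentation and nitric oxide synthesis, followed. Its signal was 8749, 8670 and 9370 in stimulated KO, KI and WT cells, against 995, 760 and 886 in untreated KO, KI and WT cells. The stimulated signals lay within 1.08-fold of each other across genotypes. The mean log2 change was 3.35 (SE 0.13, limma adjusted p = 0.0006), the 57th highest. For comparison, the 470 probe sets that rose had a median ratio of 1.39 between their highest and lowest stimulated genotype (interquartile range 1.21 to 1.71).

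Irf8, needed for the development of monocytes and dendritic cells and itself inducible by interferon-γ, had a signal of 6805, 8959 and 5783 in stimulated KO, KI and WT cells, against 1971, 1465 and 1574 in untreated ones. The KI array was the highest of the stimulated arrays and the lowest of the untreated ones. The mean log2 change was 2.09 (SE 0.20, limma adjusted p = 0.00628), the 134th highest. The summed signal of B cell markers was lower on the stimulated than on the untreated array of each genotype. In KI cells, however, the single markers did not move together. Cd79a (302 against 152) and Blk (246 against 159) were higher after stimulation. Cd22 (229 against 552), Ms4a1 (125 against 319) and Cd79b (106 against 128) were lower, and a second Ms4a1 probe set was higher (172 against 86). Dendritic cell markers did not move together either. In KI cells Itgax was lower after stimulation (3142 against 7305) and the sum of the others higher, and in KO cells the chemokine receptor Ccr7 was higher (1897 against 140) and Itgax lower (1526 against 1798). The part of either cell type in the Irf8 signal was not tested.

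Stat3 had a signal of 3399, 3510 and 3032 in stimulated KO, KI and WT cells, against 1572, 1608 and 1024 in untreated ones. The fold of stimulated over untreated signal was 2.16 in KO, 2.18 in KI and 2.96 in WT cells. The mean log2 change was 1.27 (SE 0.15, limma adjusted p = 0.0109), the 296th highest. A second Stat3 probe set, at 2754, 2476 and 1792 in stimulated and 934, 732 and 598 in untreated KO, KI and WT cells, had a mean log2 change of 1.63 (SE 0.13, limma adjusted p = 0.004).

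Irf5, which drives genes for inflammatory cytokines such as Il12b in macrophages, started high and rose least of the 5. Its signal was 8956, 8907 and 5263 in stimulated KO, KI and WT cells, against 4010, 5029 and 2565 in untreated KO, KI and WT cells. Both states were lowest in WT, and the stimulated WT signal was close to the untreated KI signal. The mean log2 change was 1.01 (SE 0.12, limma adjusted p = 0.0123), the 391st highest.

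Irf3, the constitutive factor behind the first interferon-β made after LPS, had a signal of 280, 260 and 237 in stimulated KO, KI and WT cells, against 450, 248 and 508 in untreated ones. The untreated KO and WT arrays were the highest, and the untreated KI array lay among the stimulated ones. Its mean log2 change was -0.57 (SE 0.31, limma adjusted p = 0.306). A second Irf3 probe set was under the floor on all 6 arrays and gives no value.

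Stat6 had a signal of 1805, 1937 and 1305 in stimulated KO, KI and WT cells, against 2295, 2098 and 951 in untreated ones. The lowest values were those of both WT arrays, and the states overlapped. Its mean log2 change was -0.00 (SE 0.19, 95% interval -0.49 to 0.49, limma adjusted p = 0.996), and it was 0.17 with each array centred on its median.

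**Figure D2:**
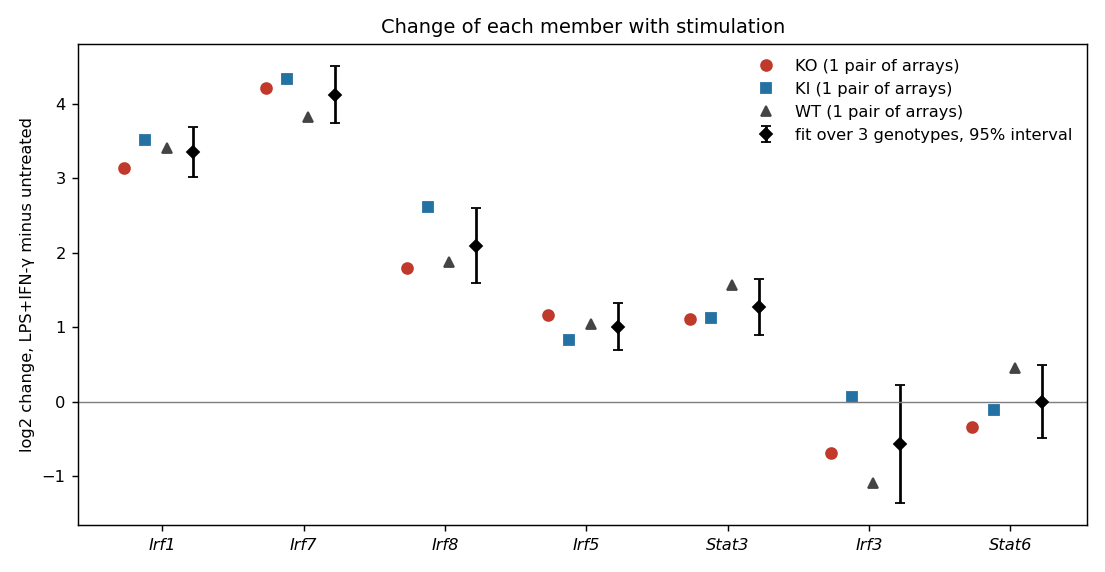
Log2 change of each member from untreated cells to cells given LPS with interferon-γ, in KO, KI and WT (1 pair of arrays each), with the mean of the fit and its 95% interval as a black diamond. The mean runs from 4.12 for Irf7 to -0.57 for Irf3, and the intervals of Irf3 and Stat6 span 0.

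Size per genotype was then read without a test, since a single pair of arrays leaves no error. Among the 7 members, 5 were at least 1 higher on the log2 scale with stimulation in KO cells (6.54% of all probe sets), 4 in KI cells (5.58%) and 5 in WT cells (8.54%). The gene missing in KI was Irf5, at 0.82. Irf3 was the 1 member at least 1 lower, in WT cells (-1.10; 10.1% of probe sets).

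The size of the response was next compared between genotypes. Differences in log2 change between KO and WT cells stayed under 1 for all 7 members, where 12.5% of probe sets reached 1 in either direction, and so did those between KI and KO cells (9.15%). Those counts use the leading probe set of each gene, among which the value nearest to 1 was that of Stat6 for KO minus WT (-0.80) and of Irf8 for KI minus KO (0.82). Between KI and WT cells 1 of 7 members, Irf3, differed by at least 1 upwards (1.17; 6.77% of probe sets), its log2 change being 0.07 in KI and -1.10 in WT. Irf8 had a log2 change of 2.61 in KI, 1.79 in KO and 1.88 in WT cells. For Irf7 the difference of KI minus WT was 0.51 on the leading and 1.12 on the second probe set. That of KO minus WT was 0.38 on the leading and 0.97 on the second. For Stat3 the difference of KI minus WT was -0.44 on the leading and 0.17 on the second probe set, a change of sign. That of KO minus WT was -0.45 on the leading and -0.02 on the second. None of these differences has a test.

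For the KO line against WT, Stat6 and Irf5 were the members with the largest differences, both higher in KO, and no member passed the test. In the limma fit over both states, 0 of 9344 probe sets passed (0.0%), 945 had an unadjusted p under 0.05, and 2 of these were leading probe sets of members, Stat6 and Irf5. Stat6 was 2295 in untreated KO cells, against 951 in untreated WT cells, a ratio of 2.41, and 1805 in stimulated KO cells, against 1305 in stimulated WT cells, a ratio of 1.38. Its log2 difference over both states was 0.87 (SE 0.23, 95% interval 0.27 to 1.47, limma adjusted p = 0.432). Irf5 was 1.56-fold higher in untreated and 1.70-fold higher in stimulated KO cells, with a log2 difference of 0.71 (SE 0.15, 95% interval 0.32 to 1.09, limma adjusted p = 0.432). Stat3 had a log2 difference of 0.39 (SE 0.18, limma adjusted p = 0.538) and its second probe set 0.63 (SE 0.16, limma adjusted p = 0.432).

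Irf1, Irf7, Irf8 and Irf3 were closer in KO and WT cells. The log2 differences were 0.03 for Irf1 (95% interval -0.37 to 0.44), 0.16 for Irf7 (-0.31 to 0.64), 0.28 for Irf8 (-0.34 to 0.90) and 0.03 for Irf3 (-0.93 to 0.999), with limma adjusted p from 0.649 to 0.992. The median over the 7 leading probe sets was 0.28, against -0.04 over all named genes. The signs of the small differences were not stable, with -0.04 for Irf1 after quantile normalization, -0.01 for Irf3 with the floor at the 60th percentile and -0.13 on the second Irf7 probe set. By size, Stat6 was the 1 member at least 1 higher in untreated KO cells (1.27; 6.29% of probe sets), and 0 of 7 differed that much in stimulated cells (5.82% of probe sets in either direction).

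The KI line was set against the same WT arrays, so both comparisons share them. In this fit 1 of 9344 probe sets passed (0.0107%), a probe set of several beta-globin genes that was lower in KI and is mentioned after its value was seen, and 1597 had an unadjusted p under 0.05. No member passed. Irf5 had 8907 in stimulated KI cells, against 5263 in stimulated WT cells, and 5029 in untreated KI cells, against 2565 in untreated WT cells, ratios of 1.69 and 1.96. Its log2 difference was 0.87 (SE 0.15, 95% interval 0.48 to 1.25, limma adjusted p = 0.223), and that of Stat6 0.86 (SE 0.23, 95% interval 0.26 to 1.45, limma adjusted p = 0.224). Stat6 was 2.21-fold higher in untreated and 1.48-fold higher in stimulated KI cells.

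Irf3 was 2.05-fold lower in untreated KI than in untreated WT cells, at 248 against 508, and 260 against 237 after stimulation. Over both states its log2 difference was -0.45 (SE 0.38, limma adjusted p = 0.537). Irf1 had -0.17 (95% interval -0.57 to 0.24), Irf7 0.05 (-0.42 to 0.52), Irf8 0.26 (-0.35 to 0.88) and Stat3 0.43 (-0.03 to 0.89). With each array centred on its median these became 0.16 for Irf1, a change of sign, 0.38 for Irf7, 0.59 for Irf8 and 0.76 for Stat3, and that of Irf3 became -0.12. The second Irf7 probe set gave -0.35. By size 1 member, Stat6, was at least 1 higher in untreated KI cells (1.14; 8.14% of probe sets) and 1 member, Irf3, at least 1 lower (-1.03; 10.0% of probe sets), while 0 of 7 differed that much after stimulation (6.81% of probe sets in either direction). Itgax was 3142 in stimulated KI cells, against 1629 in stimulated WT cells, and 7305 in untreated KI cells, against 816 in untreated WT cells, while the other dendritic cell markers summed to less in KI than in WT cells in both states. The part of these cells in the signals of Irf5 and Stat6 was not tested.

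KI and KO cells were compared directly in the same fit, where 0 of 9344 probe sets passed (0.0%), 704 had an unadjusted p under 0.05, and no member was among them. Irf5 in KI cells was within 1.25-fold of KO in both states, and Stat6 had a log2 difference of -0.01 (95% interval -0.61 to 0.58). The largest member difference was that of Irf3 (-0.48, SE 0.38, limma adjusted p = 0.774).

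**Figure D3:**
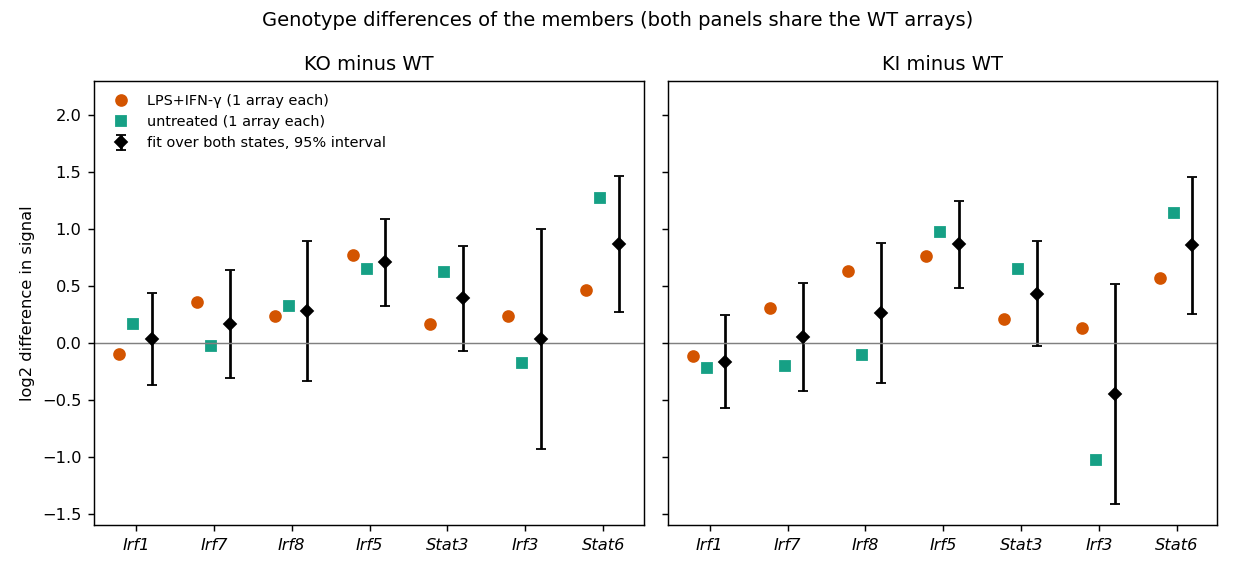
Log2 difference of each member in KO (left) and KI (right) against WT, for stimulated and untreated cells (1 array each) and for the fit over both states with its 95% interval. By the fit over both states, Stat6 and Irf5 lie highest in both panels, which share the WT arrays, and no member passed the adjusted test.

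Genes whose signal ran most like a member's over the 6 arrays were named by Pearson's r of log2 signal. Because the arrays form a stimulated and an untreated set, a high r mostly records that contrast, and among the 1837 other named genes that varied by at least 1, 173 had an r of at least 0.95 with Irf7 and 160 with Irf1. The nearest to Irf7 were Gm9706, Samhd1, a dNTP hydrolase that restricts retroviruses, and Tlr6, a receptor for bacterial lipoproteins (r = 0.999 for each). The nearest to Irf1 were the chemokine Ccl5 and the GTPases Gbp2b and Gbp7 (r = 0.999, 0.999 and 0.998), and to Irf8 Snx10, Rnf19b and the adhesion molecule Icam1 (0.999, 0.994 and 0.994). Stat3 ran with Basp1, N4bp1 and Tnip1 (0.997, 0.996 and 0.996). Fewer genes reached 0.95 with Irf5 (32, led by Map4, Chd1 and Crybg1 at 0.995, 0.987 and 0.987), Irf3 (22, led by Tra2b, Ssna1 and Septin10 at 0.993, 0.987 and 0.986) and Stat6 (21, led by Dctn1, Ints5 and AU040320 at 0.987, 0.984 and 0.976). Dctn1, a dynactin subunit, had 938, 898 and 419 in stimulated KO, KI and WT cells, against 1085, 1135 and 227 in untreated ones. Its low values on both WT arrays follow from its choice by likeness to Stat6.

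The rest of the pathway was described by lists, beside 359 of 6767 named genes that rose, 443 that fell and a median of -0.13. Of the other IRF and STAT genes, 5 were measured and 1 rose. Irf9, a DNA-binding partner of Stat2, had 1453, 1371 and 1403 in stimulated KO, KI and WT cells, against 921, 963 and 808 in untreated ones, a mean log2 change of 0.65 (SE 0.14, limma adjusted p = 0.0482). Stat5a had a change of 0.61 (limma adjusted p = 0.0541), and Stat4, Stat5b and Irf4 had 0.54, 0.09 and -0.67 at signals under the floor on some arrays (limma adjusted p = 0.533, 0.858 and 0.238). Irf4, a factor of plasma cells and alternatively activated macrophages, was above the floor only on the untreated KO (140) and KI (278) arrays.

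Among 14 measured receptors and Janus kinases, 4 rose and 1 fell (median 0.34). Jak2, a kinase of the interferon-γ receptor, rose by 2.14 on the log2 scale, Il10ra by 1.74, Il4ra, a receptor chain for interleukins 4 and 13, by 1.55 and Jak3 by 0.94. Ifngr1, the ligand-binding chain for interferon-γ, was 290, 232 and 178 in stimulated KO, KI and WT cells, against 910, 714 and 707 in untreated ones, and fell by 1.75. Of 11 inhibitors and phosphatases, 4 rose and none fell (median 0.25). They were Usp18, which limits type I interferon signalling (4.79), Socs1 and Socs3, inhibitors of Janus kinases and cytokine receptors (4.29 and 3.88), and the phosphatase Ptpn6 (1.45). Of 8 measured genes upstream of Irf3, Irf5 and Irf7, 2 rose (median 0.64), the RNA sensor Ifih1 by 3.81 and the adaptor Myd88 by 0.88. Limma adjusted p for these genes ran from 0.000774 to 0.0459.

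Known targets were grouped by the factor they are known for. Of 16 measured ISRE-type genes, 14 rose (median 4.67), led by Ccl5 (7.57), Ifit2 (6.12), Ifit1 (5.87), Isg15 (5.78) and Cxcl10 (5.27), while Eif2ak2 (0.43) and Ifnb1 (-0.25) did not pass. Of 22 genes of the Irf1 and GAS type, 20 rose (median 3.21), led by Cxcl9 (7.05), Iigp1 (6.46), Gbp2b (6.22), Gbp2 (5.78) and Il12b (5.60), while Ciita (1.31) and B2m (0.11) did not pass. Of 16 Stat3-type genes, 10 rose (median 1.63), among them Fgl2 (3.98), Socs3 (3.88), Timp1 (2.92), Bcl3 (2.86) and Il1rn (2.11). Of 11 Stat6-type genes, 2 rose and 2 fell (median -0.09). The chemokine Ccl22 rose by 4.34 and Il4ra by 1.55, while Mrc1, the mannose receptor, fell by 2.58 and Pparg by 2.27. Against untreated WT cells, 2 of the 11 were at least 1 lower in untreated KI cells (10.0% of probe sets). These were Arg1 (194 against 3949) and Chil3 (123 against 2329), and Mrc1 was the 1 at least 1 higher (957 against 321, 8.14%). Arg1 was 388, 132 and 3319 in stimulated KO, KI and WT cells, where 2 of the list were at least 1 higher in KO and 1 in KI. Neither Arg1 nor Chil3 passed the test for KO or KI against WT. The median log2 difference of the ISRE-type genes in stimulated cells was 0.51 in KO and 0.47 in KI against WT, that of the Irf1 and GAS type -0.02 and 0.07, and that of all named genes 0.00 and -0.00. In untreated cells the ISRE-type medians were 0.03 in KO and 0.00 in KI. Isg20, Mx1, Mx2 and Cxcl10 were under the floor on every untreated array, and Ifit2, Ifit3 and Ccl5 on the untreated KI and WT arrays. The floor thus partly set both medians, which cannot compare genotypes before stimulation. Of the other lists, receptors and Janus kinases had the highest untreated KO median (0.67) and the Irf1 and GAS type the lowest (-0.05). For untreated KI these were other IRF and STAT genes (0.66) and inhibitors and phosphatases (-0.42). The medians of the lists other than ISRE-type ran from -0.19 to 0.34 in stimulated KO cells and from -0.05 to 0.24 in stimulated KI cells. The lowest were those of the upstream genes and the highest those of the other IRF and STAT genes. None of these medians has a test.

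**Figure D4:**
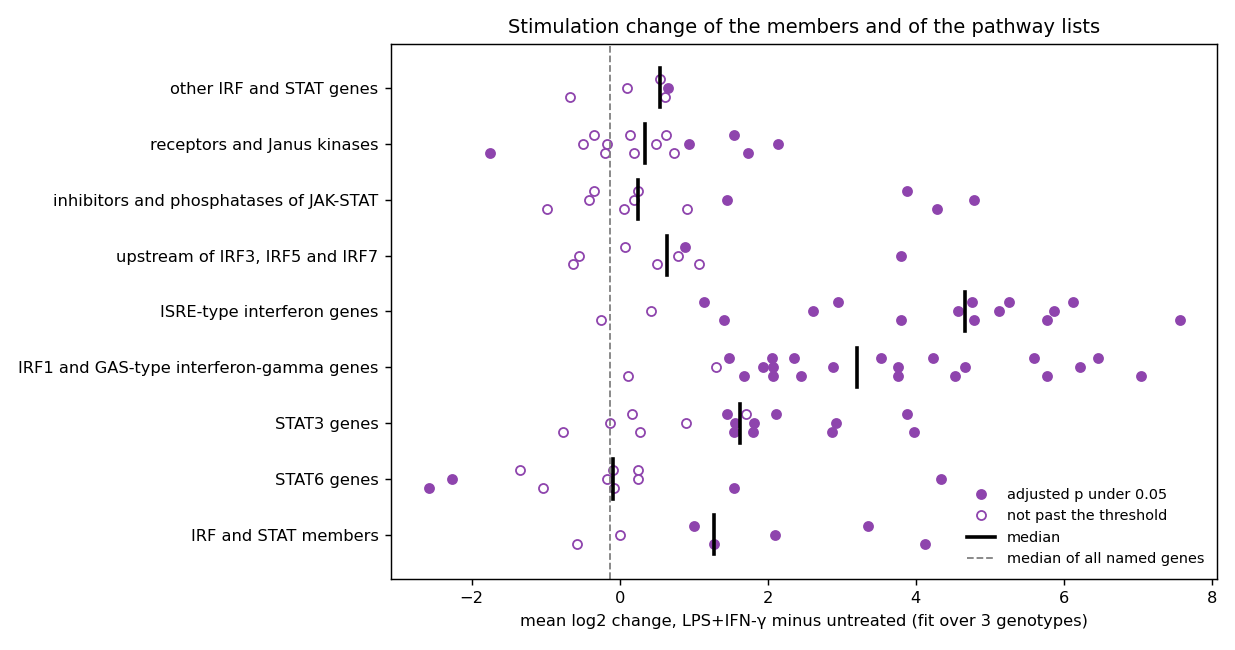
Mean log2 change with stimulation of each measured gene in the 8 pathway lists and of the 7 members, filled where the limma adjusted p was under 0.05, with black bars at list medians and a dashed line at the median of all named genes (-0.13). The ISRE-type (median 4.67) and Irf1 and GAS-type lists (3.21) lie farthest to the right.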

How the data were processed

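The authors deposited 1 table of linear intensity values, 12488 probe sets by 6 arrays, which the submitters' processing notes credit to MAS5. Neither a version nor a scaling target is given in the sources used here. Trimmed means of the arrays (2% cut at each end) lay between 499.5 and 499.9. Intensities were scaled to one trimmed mean, raised to a floor at the 40th percentile (98.0) and converted to log2. The 9344 probe sets above the floor on at least 1 array, Affymetrix controls left out, entered limma 3.58.1 in R 4.3.3, with additive terms for state and genotype (2 residual degrees of freedom), trended eBayes and a Benjamini-Hochberg threshold of 0.05. The floor makes changes of dim genes look smaller than they are. For a single genotype or state no test was possible, and a log2 difference of 1 or more was counted.

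Names came from the platform annotation, checked against RefSeq gene identifiers. Of 12422 probe sets 10833 have 1 symbol, 396 several and 1193 none. A gene is led by its brightest probe set, which gives 6767 named genes. The members and gene lists were chosen with earlier results of these data known. Named are the 7 measured members, Cebpb, the measured other IRF and STAT genes, and up to 5 called genes of each list by size of change. Also named are the 3 genes with the highest Pearson's r to each member, among genes whose highest signal reached the 75th percentile. Uncalled genes of the 2 interferon target lists and of the Stat6-type list were named after their values were seen. The code was tested on simulated data.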

Additional observations from a re-analysis of the deposited data

Results flagged for a closer look

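For 2 members the change with stimulation did not run the same way in every genotype, with 1 pair of arrays in each, and neither difference was tested. The share of all probe sets with such mixed directions was not counted, so this is not shown to be particular to these members. Irf3 had a log2 change of -0.69 in KO, 0.065 in KI and -1.10 in WT cells. Stat6 had -0.35 in KO, -0.12 in KI and 0.46 in WT cells. No group had the 4 arrays needed to look for an outlying sample.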

How the results depend on the processing

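The count of members called for stimulation was 5, and that of genes called in the 8 pathway lists 56 of 98. Without a filter on dim probe sets these became 2 and 15, and the limma adjusted p of Irf5, Irf8 and Stat3 was 0.0880, 0.102 and 0.0995. Without both WT arrays the counts were 0 and 0, without both KO arrays 0 and 0, and without both KI arrays 0 and 7. In those fits 1 residual degree of freedom remained, and the log2 changes of the 5 members stayed between 0.93 (Irf5) and 4.27 (Irf7). Floors at the 20th and 60th percentile, a pseudocount of 16 in place of a floor, quantile normalization, median centring and eBayes without the trend left 5 members called and the list count within 1.5 times of 56. No member was called between genotypes under any alternative that could be fitted; adjusted p ran down to 0.0655 (Irf5, KI minus WT). The difference in induction of Irf7 between KI and WT reached 1.12 on its second probe set, against 0.51.

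No group has a replicate, so no value here measures the spread between animals or cultures, and the WT arrays enter both genotype comparisons. The signal of Irf3 was 237 to 508 on the 6 arrays, against a floor of 98.0.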

Other observations

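Promoter letters were also counted for the genes that rose. Of 359 named genes that rose with stimulation, 290 had a promoter window in the RefSeq table. Among these, 10.3% had an ISRE match, against 3.81% of the 5433 measured genes with a window, 10.0% had a GAS match, against 8.43%, and 14.5% had a C/EBP match, against 10.9%. These shares are a description of letters in 300 bases and were not tested.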
